A study of Mus musculus with 24 samples.

Results

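The 10 genes followed here mark the meninges and fibroblasts of the brain: the small leucine-rich proteoglycans Dcn, Lum and Ogn, the fibrillar collagen chains Col1a1, Col1a2 and Col3a1, the growth factor Igf2 with its binding protein Igfbp2, the GABA transporter Slc6a13 and the retinoic acid enzyme Aldh1a2. Every probe set whose only gene symbol was one of these names was taken, which gave 17 probe sets of the 45101 on the array, and each gene is represented by the probe set with the highest mean over the arrays. That makes 10 of the 18194 genes with a named probe set. Of the 17 probe sets, 13 passed the filter on dim signal, among them the brightest of all 10 genes. Expression was measured in total RNA of the whole brain of mice at 4 months of age, on 24 arrays in 4 groups of 6, labelled wt (wild type), aSYN, Hsp70 and aSYN/Hsp70 (carrying both). aSYN is read here as alpha-synuclein and Hsp70 as the heat shock protein, and the labels name no strain, no promoter and no way in which either genotype was made. Nor do they say that the samples of 1 group are different animals. Sex-linked probe sets marked both female and male samples in every group, so the arrays of a group did not all come from 1 animal. How many animals each group held is not given. A p-value here therefore speaks of the variation among these arrays, part of which may be technical.

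The meninges are the membranes that wrap the brain, and their fibroblasts, together with those along larger vessels, make most of its fibrous matrix. Fibrillar collagens give that matrix its strength, and small leucine-rich proteoglycans bind collagen and steer how its fibrils assemble. Meningeal fibroblasts are also known as a source of insulin-like growth factor 2 and of retinoic acid, a signal to the developing cortex. How much meninges stays on a dissected brain can differ between animals, and in RNA from whole tissue fewer cells of a type cannot be told apart from less RNA per cell.

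Values below are log2(intensity + 16) after quantile normalisation, and a difference of 1 is a doubling. Each comparison is a contrast in 1 limma fit of all 24 arrays over 27022 probe sets, and a gene is called at a Benjamini-Hochberg adjusted p under 0.05. Array medians lay between 458 and 893 intensity units before normalisation, and 4 arrays stood apart by a limma weight under 0.5: aSYN/Hsp70 replicates 4 (0.124) and 3 (0.394) and Hsp70 replicates 3 (0.251) and 6 (0.332). None of the arrays of low weight was wt or aSYN. Xist and Y-linked probe sets marked 2 of 6 aSYN/Hsp70 samples as female, 3 of 6 Hsp70 samples, and 4 of 6 in both wt and aSYN. As a check of the tissue, all 5 neuronal genes and all 5 glial genes read here passed the filter, Snap25, Syt1 and Mbp included.

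None of the 10 genes was called in any comparison. Limma called 0 of 10 in aSYN versus wt, where 0.0037% of all probe sets tested were called (1 probe set), and 0 of 10 in aSYN/Hsp70 versus aSYN, where 0.718% were called (194 probe sets). It called 0 of 10 in Hsp70 versus wt, in aSYN/Hsp70 versus wt, in aSYN/Hsp70 versus Hsp70 and in the interaction, and 0% of all probe sets in each of these 4. The interaction is the aSYN difference in the presence of Hsp70 minus that in its absence. At an unadjusted p under 0.05, limma gave 0 of the 10 genes in aSYN versus wt, 0 in Hsp70 versus wt, 1 in aSYN/Hsp70 versus wt, 2 in aSYN/Hsp70 versus aSYN, 1 in aSYN/Hsp70 versus Hsp70 and 0 in the interaction. The shares of all probe sets under that p were 5.17%, 4.83%, 14.5%, 19.6%, 9.62% and 8.13% in the same order.

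**Figure D1:**
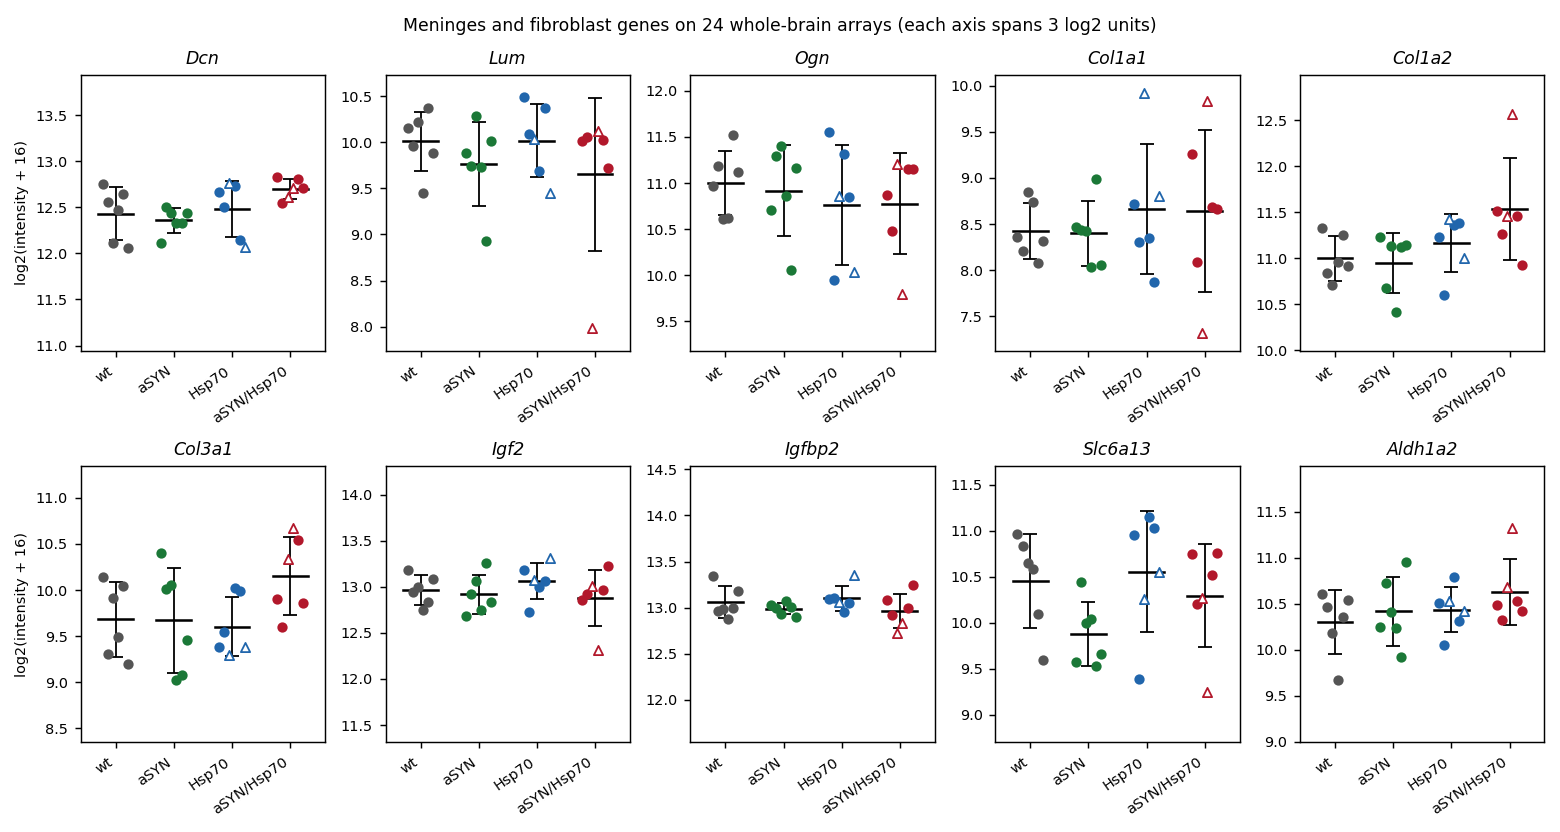
Level of each of the 10 genes (log2(intensity + 16), quantile normalised, vertical axis) in the 4 groups, with 1 point per array, the group mean as a bar and its SD as error bars (n = 6). Open triangles are the 4 arrays of low weight; every vertical axis spans the same number of log2 units, so the spread of Igfbp2 (0.15) and Col1a1 (0.61) can be compared by eye, and Dcn is the gene whose aSYN and aSYN/Hsp70 points do not overlap.

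Decorin, lumican and osteoglycin are the secreted proteoglycans of the set. Dcn, the decorin gene, read 12.05 to 12.75 in wt (median 12.51), 12.11 to 12.50 in aSYN (median 12.38), 12.06 to 12.76 in Hsp70 (median 12.58) and 12.54 to 12.83 in aSYN/Hsp70 (median 12.71). Its lowest aSYN/Hsp70 array thus lay above its highest aSYN array, and the 2 groups did not overlap. Across all probe sets, 2.05% had groups that did not overlap in that comparison, and Dcn was the only one of the 10 genes. The mean was 12.36 ± 0.14 in aSYN and 12.70 ± 0.11 in aSYN/Hsp70 (SD, n = 6), a difference of 0.34 (SE 0.13, 1.27-fold, 95% interval 0.07 to 0.62), which did not pass after adjustment (limma adjusted p = 0.172).

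Against wt the Dcn difference in aSYN/Hsp70 was 0.27 (SE 0.13, limma adjusted p = 0.348), with 6 of 6 arrays above the wt mean. Against Hsp70 it was 0.22 (SE 0.13, adjusted p = 0.601), again with 6 of 6 above the mean of Hsp70, and 0.14 without Hsp70 replicate 6. The interaction for Dcn was 0.29 (SE 0.19, adjusted p = 0.728). These values differed little without the 4 arrays of low weight, at 0.29 against wt, 0.36 against aSYN and 0.21 against Hsp70. The second Dcn probe set was too dim for the filter and correlated with the first at r = -0.20 over the 24 arrays, group means removed. With the mean of both probe sets the difference was 0.60 against wt and 0.45 against Hsp70.

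In no other comparison did any of the 10 genes have groups that did not overlap. The shares of all probe sets without overlap there were 1.17% in aSYN versus wt, 0.27% in Hsp70 versus wt, 0.888% in aSYN/Hsp70 versus wt and 0.311% in aSYN/Hsp70 versus Hsp70.

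Lum encodes lumican, which regulates collagen fibril spacing and lies next to Dcn on chromosome 10, with 0 protein-coding genes between them in RefSeq. Lum read 9.45 to 10.37 in wt (median 10.06), 8.92 to 10.29 in aSYN (median 9.81), 9.45 to 10.49 in Hsp70 (median 10.06) and 7.98 to 10.12 in aSYN/Hsp70 (median 10.02). All groups overlapped, and the lowest value belonged to 1 array, aSYN/Hsp70 replicate 3, whose next neighbour in its group read 9.72. The difference of -0.36 between aSYN/Hsp70 and wt (SE 0.30, limma adjusted p = 0.559) was -0.02 without that array. Against Hsp70 the difference of -0.37 (SE 0.30, adjusted p = 0.715) was -0.03 without it. Lum and Dcn, though neighbours, correlated at r = 0.18 over the 24 arrays (rho = 0.20, permutation p = 0.313 and 0.329, adjusted p = 0.705 and 0.78 over the 45 pairs of members, r = 0.06 without the 2 farthest arrays).

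Ogn encodes osteoglycin, also called mimecan, a further member of the proteoglycan family. Its range was 10.62 to 11.52 in wt, 10.06 to 11.40 in aSYN, 9.94 to 11.56 in Hsp70 and 9.80 to 11.20 in aSYN/Hsp70, with medians of 11.04, 11.01, 10.86 and 11.01. The group medians were thus close, while single arrays in aSYN, Hsp70 and aSYN/Hsp70 read lower than any wt array. The 5 differences between groups lay between -0.24 and 0.02, none as large as its SE, and the smallest limma adjusted p was 0.71. The second Ogn probe set, also past the filter, followed the first at r = 0.59 over the 24 arrays with group means removed.

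Of the small leucine-rich proteoglycans outside the 10 genes, 6 of 10 passed the filter and limma called 0 in each comparison. Podn, which encodes podocan, had the largest differences among those named. They were 1.26 between aSYN/Hsp70 and Hsp70 (SE 0.36, limma adjusted p = 0.295) and 1.60 in the interaction (SE 0.51, adjusted p = 0.379). From wt, Podn differed by -0.81 in Hsp70 (SE 0.36, adjusted p = 0.881) and by 0.45 in aSYN/Hsp70 (SE 0.36, adjusted p = 0.539).

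The fibrillar collagen genes are next, since Col1a2 and Col3a1 gave the largest differences among the 10 genes in aSYN/Hsp70 brains. Col1a1 and Col1a2 encode the alpha chains of type I collagen, and Col3a1 encodes the chain of type III collagen, which forms fibrils with it. RefSeq promoters of assembly GRCm38.p6 were held for 7 of the 10 genes (13 promoters), not for Dcn, Lum or Col1a1. The 4 printed here belong to Col1a2 and the genes that varied most with it across arrays, Col3a1 and Aldh1a2, and to Ogn, which varied most with Slc6a13. Each is the 250 bases before the annotated start, all on the plus strand, with matches to 3 core motifs in capitals: the CCAAT box (CCAAT), the TATA box (TATAAA) and the GC box (GGGCGG), each searched on both strands. They lie at chr6:4505368-4505617 (Col1a2), chr1:45311288-45311537 (Col3a1), chr9:71215539-71215788 (Aldh1a2) and chr13:49607765-49608014 (Ogn).
Col1a2: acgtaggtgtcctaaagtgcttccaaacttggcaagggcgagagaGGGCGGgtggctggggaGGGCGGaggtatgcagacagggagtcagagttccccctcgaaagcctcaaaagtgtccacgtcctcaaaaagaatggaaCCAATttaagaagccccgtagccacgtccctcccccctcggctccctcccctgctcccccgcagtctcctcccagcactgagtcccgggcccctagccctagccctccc
Col3a1: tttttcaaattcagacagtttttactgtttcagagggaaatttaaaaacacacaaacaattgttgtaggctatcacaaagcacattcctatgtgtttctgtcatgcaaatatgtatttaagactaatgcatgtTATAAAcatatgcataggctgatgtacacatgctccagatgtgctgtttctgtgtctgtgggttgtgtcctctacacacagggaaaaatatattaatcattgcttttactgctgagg
Aldh1a2: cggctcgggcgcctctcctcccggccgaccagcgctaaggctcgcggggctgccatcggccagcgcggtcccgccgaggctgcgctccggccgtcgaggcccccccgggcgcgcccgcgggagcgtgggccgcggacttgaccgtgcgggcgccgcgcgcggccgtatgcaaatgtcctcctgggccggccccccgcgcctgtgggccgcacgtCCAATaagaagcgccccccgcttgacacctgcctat
Ogn: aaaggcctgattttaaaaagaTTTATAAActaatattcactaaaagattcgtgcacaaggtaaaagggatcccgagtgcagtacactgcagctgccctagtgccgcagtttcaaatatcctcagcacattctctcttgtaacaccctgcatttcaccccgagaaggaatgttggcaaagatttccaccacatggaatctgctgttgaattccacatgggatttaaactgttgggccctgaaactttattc

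The Col1a2 promoter held 1 CCAAT box, which begins 109 bases before the start, and 2 GC boxes farther upstream. Aldh1a2 held 1 CCAAT box 36 bases before its start and no TATAAA match. Col3a1 held 1 TATAAA match, 117 bases before the start, and Ogn held 2 that overlap on opposite strands, in the printed run of 8 capitals near its far end. Of 32851 promoters of the same length, 33.8% held a CCAAT match, 12.4% a TATA match and 32.7% a GC match. Col1a2 and Col3a1 shared none of the 3 motifs, and Col1a2 and Aldh1a2 shared the CCAAT match.

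Col1a2 read 10.71 to 11.33 in wt (median 10.94), 10.42 to 11.23 in aSYN (median 11.13), 10.60 to 11.42 in Hsp70 (median 11.30) and 10.92 to 12.57 in aSYN/Hsp70 (median 11.46). The groups overlapped through 1 low aSYN/Hsp70 array, replicate 6 at 10.92, while the other 5 lay above every aSYN array. The mean was 10.95 ± 0.33 in aSYN and 11.53 ± 0.55 in aSYN/Hsp70 (SD, n = 6), a difference of 0.58 (SE 0.21, 95% interval 0.14 to 1.02, limma adjusted p = 0.155). The highest array, replicate 4, is the one of lowest weight, and the difference was 0.37 without it and 0.34 without all 4 arrays of low weight.

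Against wt, Col1a2 differed by 0.53 in aSYN/Hsp70 (SE 0.21, 1.45-fold, limma adjusted p = 0.304), and by 0.33 without replicate 4. Against Hsp70 the difference was 0.37 (SE 0.21, adjusted p = 0.593), and 0.16 without replicate 4. The interaction was 0.41 (SE 0.30, adjusted p = 0.761), and 0.21 without it. A second Col1a2 probe set past the filter did not follow the first (r = 0.04 over 24 arrays, group means removed) and differed by -0.08 between aSYN/Hsp70 and aSYN (adjusted p = 0.935) and by -0.30 from wt (adjusted p = 0.732). That second probe set differed by 0.41 from Hsp70 (limma adjusted p = 0.771) and by 0.635 in the interaction (adjusted p = 0.822), the same direction as the first. The third Col1a2 probe set was too dim for the filter. With the mean of all 3 Col1a2 probe sets, the dim one included, the difference from Hsp70 was 0.17 and the interaction 0.12.

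Col3a1 read 9.19 to 10.14 in wt (median 9.70), 9.02 to 10.40 in aSYN (median 9.74), 9.29 to 10.02 in Hsp70 (median 9.46) and 9.60 to 10.67 in aSYN/Hsp70 (median 10.12). All groups overlapped, and 5 of 6 aSYN/Hsp70 arrays lay above the mean of each of the other groups. The difference was 0.55 from Hsp70 (SE 0.25, 95% interval 0.04 to 1.06, limma adjusted p = 0.483), 0.48 from aSYN (SE 0.25, adjusted p = 0.283) and 0.47 from wt (SE 0.25, adjusted p = 0.368). Without the 4 arrays of low weight these were 0.24, 0.30 and 0.29. The interaction of 0.56 (SE 0.35, adjusted p = 0.72) was 0.25 without those arrays and 0.95 with the mean of both Col3a1 probe sets. The second of these was too dim for the filter, so the larger value leans on a dim signal.

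Col1a1 had the widest spread within groups of the 10 genes. It read 8.07 to 8.84 in wt, 8.03 to 8.99 in aSYN, 7.87 to 9.93 in Hsp70 and 7.32 to 9.83 in aSYN/Hsp70. The highest arrays of Hsp70 and aSYN/Hsp70, and the lowest of aSYN/Hsp70, were all arrays of low weight. Differences between groups lay between -0.02 and 0.24, none as large as its SE, and with 95% intervals 0.70 wide on each side only changes larger than that would have stood clear of 0. The second Col1a1 probe set ran against the first (r = -0.31 over 24 arrays, group means removed), and differed from wt by -0.71 in aSYN (limma adjusted p = 1), by -0.88 in Hsp70 (adjusted p = 0.882) and by -1.003 in the double group (adjusted p = 0.454). Both lay near the limit of the filter, with 8.9% of all probe sets tested dimmer than the first and 3.3% dimmer than the second. The SD within groups of the second was 1.20. The first was the brighter one on only 9 of 24 arrays, so the direction of Col1a1 depends on which probe set stands for it.

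**Figure D2:**
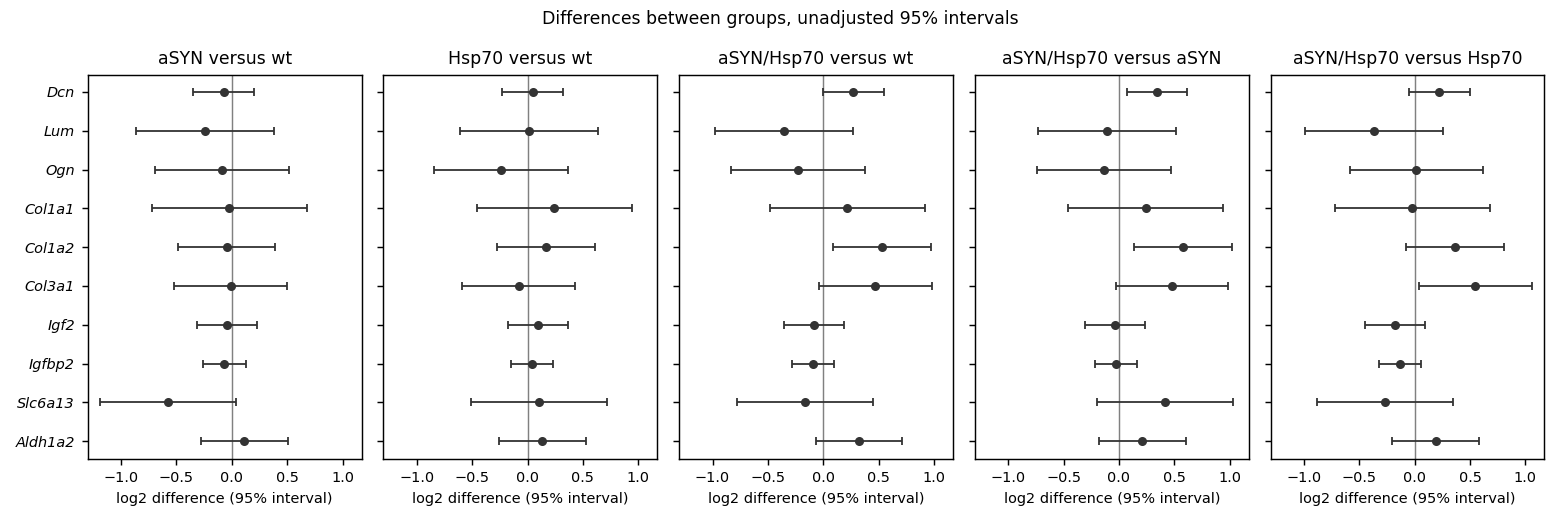
Log2 difference (horizontal axis) of each gene in the 5 comparisons of groups, from the limma fit of 24 arrays, with unadjusted 95% intervals as bars. The intervals of Dcn (0.34) and Col1a2 (0.58) in aSYN/Hsp70 versus aSYN, Col1a2 (0.53) in aSYN/Hsp70 versus wt and Col3a1 (0.55) in aSYN/Hsp70 versus Hsp70 exclude 0 before adjustment, and none of the 10 genes passes after it.

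Other collagens of the matrix were read beside these 3, from types IV, V, VI, VIII, XII and others. Of 14 past the filter, 13 were higher in aSYN/Hsp70 than in wt (median difference 0.21), 12 higher than in aSYN (median 0.29) and 12 higher than in Hsp70 (median 0.16), while limma called 0 in each. The median over all probe sets tested was -0.04, -0.03 and -0.01 in these comparisons, and the 3 comparisons share the aSYN/Hsp70 arrays. The counts fell to 10, 9 and 9 without the 4 arrays of low weight, and without replicate 4 of aSYN/Hsp70 alone they were 11, 9 and 9. Col5a1 differed by 0.60 from wt (SE 0.21, limma adjusted p = 0.278), and Col6a2 by 0.41 from wt (adjusted p = 0.331), 0.50 from aSYN (adjusted p = 0.162) and 0.43 from Hsp70 (adjusted p = 0.469). In the other direction Col8a1 differed by -0.75 from aSYN (SE 0.30, adjusted p = 0.182).

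Genes that modify and assemble collagen showed no such lean. Of 15 past the filter, 5 were higher in aSYN/Hsp70 than in wt (median -0.10) and 9 higher than in aSYN (median 0.08), with 0 called by limma. Bmp1, the proteinase that trims fibrillar procollagens, differed by 0.57 from aSYN (SE 0.17, limma adjusted p = 0.0966) and by 0.49 from wt (adjusted p = 0.274). Plod3, a lysyl hydroxylase, differed by 0.37 from aSYN (SE 0.13, adjusted p = 0.141). In the other direction, P4ha1 differed by -0.31 from wt (SE 0.17, limma adjusted p = 0.381) and Plod2 by -0.42 (SE 0.25, adjusted p = 0.411). Against Hsp70 they differed by -0.26 and -0.34 (adjusted p = 0.637 and 0.671).

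Igf2 encodes insulin-like growth factor 2, and Igfbp2 a protein that binds it. They had the smallest spread of the set, with SDs within groups of 0.22 for Igf2 and 0.15 for Igfbp2, and 31.8% and 11.8% of all probe sets tested varied less. Igf2 read 12.75 to 13.18 in wt (median 12.97), 12.68 to 13.26 in aSYN (median 12.88), 12.73 to 13.31 in Hsp70 (median 13.07) and 12.32 to 13.22 in aSYN/Hsp70 (median 12.94). Igfbp2 read 12.88 to 13.35 in wt (median 12.99), 12.90 to 13.07 in aSYN (median 13.00), 12.95 to 13.36 in Hsp70 (median 13.07) and 12.72 to 13.24 in aSYN/Hsp70 (median 12.96). For both genes the groups overlapped over most of their range.

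The differences of Igf2 lay between -0.18 and 0.10 and those of Igfbp2 between -0.13 and 0.04, with 95% intervals 0.27 and 0.19 wide on each side. The only ones beyond their SE were those between aSYN/Hsp70 and Hsp70, -0.18 for Igf2 (SE 0.13, limma adjusted p = 0.676) and -0.13 for Igfbp2 (SE 0.09, adjusted p = 0.655). For Igf2 this was -0.07 without aSYN/Hsp70 replicate 4 and 0.26 with the mean of both probe sets, the other being too dim for the filter. For Igfbp2 it was 0.01 without the 4 arrays of low weight, the other sign.

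Of the other genes of the IGF system, 9 passed the filter and limma called 0. Igfbp6, a binding protein with a preference for IGF2, differed by 0.61 between aSYN/Hsp70 and wt (SE 0.19, limma adjusted p = 0.245) and by 0.51 from aSYN (SE 0.19, adjusted p = 0.152). Igfbp4 differed by 0.34 from wt (SE 0.14, adjusted p = 0.309) and Igfbp5 by -0.29 (SE 0.14, adjusted p = 0.34). The list as a whole was divided, with 5 genes above and 4 below wt in aSYN/Hsp70 brains.

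Slc6a13 encodes GAT2, a transporter of GABA and taurine found in the leptomeninges. Slc6a13 read 9.60 to 10.96 in wt (median 10.62), 9.53 to 10.45 in aSYN (median 9.83), 9.39 to 11.15 in Hsp70 (median 10.75) and 9.25 to 10.76 in aSYN/Hsp70 (median 10.39). All 6 aSYN arrays lay below the wt mean, and 2 of them below the lowest wt array. The mean was 10.45 ± 0.51 in wt and 9.88 ± 0.35 in aSYN (SD, n = 6), a difference of -0.57 (SE 0.30, 95% interval -1.19 to 0.04) that did not pass (limma adjusted p = 0.975). It was the largest of the 10 genes between aSYN and wt, and no array of low weight enters either group.

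Between aSYN/Hsp70 and aSYN, Slc6a13 differed by 0.41 (SE 0.30, limma adjusted p = 0.44). Replicate 4 was the lowest aSYN/Hsp70 array, at 9.25 with the next at 10.20, and without it the difference was 0.62. The interaction for Slc6a13 was 0.31 with an SE of 0.42. The comparisons with wt and with aSYN/Hsp70 share the aSYN arrays, whose low mean enters both. Of the other GABA transporters listed, 1 passed the filter and it was not called.

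Aldh1a2 encodes retinaldehyde dehydrogenase 2, which makes retinoic acid and is a classic meningeal marker. Aldh1a2 read 9.67 to 10.61 in wt (median 10.41), 9.93 to 10.95 in aSYN (median 10.33), 10.05 to 10.79 in Hsp70 (median 10.47) and 10.32 to 11.32 in aSYN/Hsp70 (median 10.51). The group medians were close and all groups overlapped, with replicate 4 of aSYN/Hsp70 alone above 11. The difference between aSYN/Hsp70 and wt was 0.32 (SE 0.19, limma adjusted p = 0.408), and 0.18 without replicate 4 or 0.20 without wt replicate 4. Against aSYN it was 0.21 (SE 0.19, adjusted p = 0.544), and 0.07 without replicate 4 of aSYN/Hsp70, 0.11 without aSYN replicate 5 and 0.32 without aSYN replicate 6. Against Hsp70 it was 0.19 (SE 0.19, adjusted p = 0.765), and 0.05 without replicate 4 of aSYN/Hsp70 and 0.11 without Hsp70 replicate 2.

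In the rest of the retinoic acid pathway, 12 genes passed the filter, 8 of them lower in aSYN/Hsp70 than in wt (median -0.13), and limma called 0. Aldh1a1, another enzyme that makes retinoic acid, differed by -0.42 (SE 0.15, limma adjusted p = 0.283), and Cyp26b1, which degrades it, by 0.41 (SE 0.17, adjusted p = 0.307). Rarb, a retinoic acid receptor gene, differed by -0.30 between Hsp70 and wt (SE 0.09, limma adjusted p = 0.881).

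Counted by direction alone, 9 of the 10 genes were lower in aSYN than in wt (median -0.06) and 8 were higher in Hsp70 than in wt (median 0.07), while over all probe sets the medians were 0.00 and -0.02. Both counts moved with single arrays: the genes higher in aSYN went from 1 to 4 without wt replicate 5 or aSYN replicate 4, and those higher in Hsp70 from 8 to 5 without wt replicate 6. The median in aSYN was -0.01 without wt replicate 1, and that in Hsp70 was 0.03 without wt replicate 6. Of all probe sets tested, 49.9% were higher in aSYN and 46.6% in Hsp70 than in wt. Beside the lean in aSYN, brain endothelium genes were lower than in wt for 9 of 10 (median -0.09). Their summed log2 levels ran from 15.21 to 15.39, against 15.33 to 15.47 in wt. Genes that modify and assemble collagen were lower for 12 of 15 past the filter (median -0.13). Pituitary genes were lower for 4 of 4 past the filter (median -1.27), with summed levels of all 7 from 11.03 to 11.66 in aSYN and from 10.79 to 17.44 in wt, so that the wt arrays spanned the whole aSYN range. Limma called 0 genes of any of these lists in aSYN versus wt, and their part in the lean of the 10 genes was not tested. In aSYN/Hsp70, 5 were higher and 5 lower than in wt (median 0.07), 6 higher and 4 lower than in aSYN (median 0.23), and 5 higher and 5 lower than in Hsp70 (median 0.00). The median against wt was 0.01 without aSYN/Hsp70 replicate 1 and turned to -0.09 with the brightest probe set taken on each array, and that against aSYN was 0.07 without aSYN/Hsp70 replicate 4. Without the 4 arrays of low weight, 8 were higher than in wt, 9 higher than in aSYN and 6 higher than in Hsp70, and limma called 0. Many of the differences behind these counts are small: 39 of 60, the interactions included, were within 1 SE of 0. With a continuous covariate for sex in the fit, 0 of the 10 genes were called and the 21 differences beyond 1 SE all moved by less than 1.5 times.

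**Figure D3:**
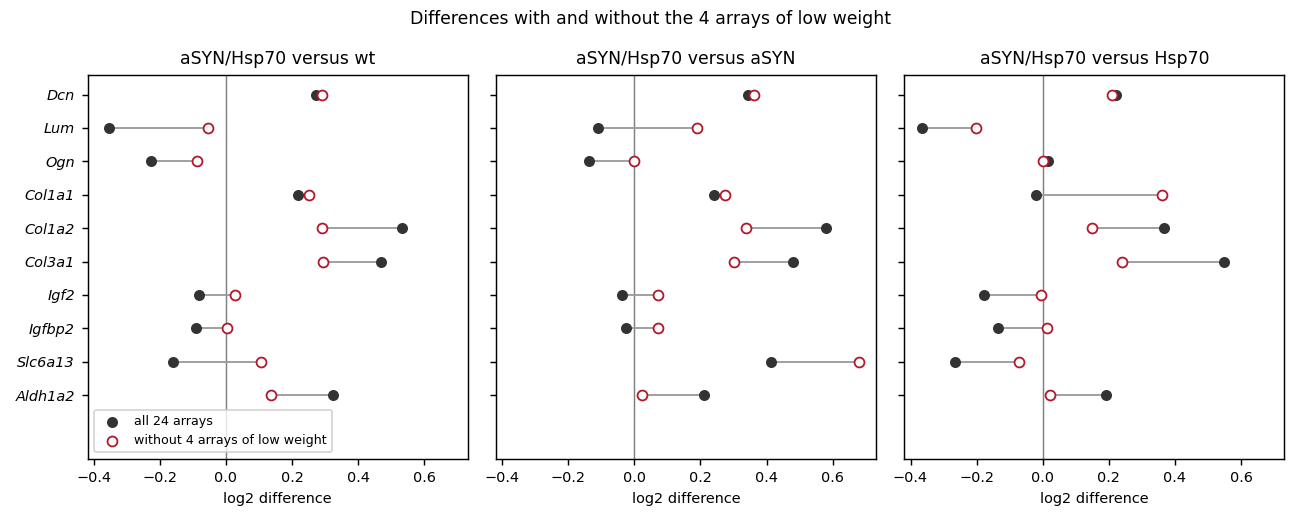
Log2 difference (horizontal axis) of each gene between aSYN/Hsp70 and the other 3 groups, with all 24 arrays (filled) and without the 4 arrays of low weight (open). Dcn hardly moves (0.34 and 0.36 against aSYN), while Col1a2 goes from 0.58 to 0.34 and Aldh1a2 from 0.21 to 0.02.

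The array with the lowest weight stood at an edge of its group in most of the 10 genes, but not always at the same edge. aSYN/Hsp70 replicate 4 was the highest of its group in Lum, Col1a1, Col1a2, Col3a1 and Aldh1a2 and the lowest in Ogn, Igf2 and Slc6a13, 8 of 10 genes in all. In wt, replicate 1 was the highest array in 7 genes. In Hsp70, replicate 2 was the lowest in 5, Ogn, Col1a2, Igf2, Slc6a13 and Aldh1a2.

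Whether the 10 genes rise and fall together among brains of 1 group was read from the correlation of each pair over the 24 arrays, with group means removed. Of 45 pairs, 28 had r above 0, with a median of 0.14 and a range from -0.38 to 0.56. In the two-sided test that permuted arrays within groups, 5 pairs had p under 0.05 and 0 passed after Benjamini-Hochberg adjustment over the 45 pairs (smallest adjusted p = 0.324). All values of a pair come from the same arrays, so anything that moves a whole array enters r.

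Ogn and Slc6a13 gave the highest r, 0.56 (permutation p = 0.0106), with rho = 0.43 (permutation p = 0.0553) and r = 0.43 without the 2 arrays farthest from the median of Ogn. Col1a2 correlated with Aldh1a2 at r = 0.53 (permutation p = 0.0216, rho = 0.43 with p = 0.051), and at 0.31 without the 2 farthest arrays. With Col3a1 the r of Col1a2 was 0.49 (permutation p = 0.0192, rho = 0.54 with p = 0.0109), and 0.41 without them. Igf2 correlated with Igfbp2 at 0.47 (permutation p = 0.036, rho = 0.41 with p = 0.0545), and at 0.49 without the 2 farthest arrays. Igf2 correlated with Slc6a13 at 0.47 (permutation p = 0.0334, rho = 0.27 with p = 0.224), and at 0.05 without the 2 farthest, so that relation rests on those arrays. The adjusted p was 0.324 for each of these 5 values of r, and 0.356 for rho in 4 of them and 0.719 for Igf2 with Slc6a13. With the mean of each gene's probe sets, r was 0.73 for Ogn with Slc6a13, 0.42 for Col1a2 with Col3a1 and 0.17 for Col1a2 with Aldh1a2. For Igf2 it was then 0.13 with Igfbp2 and 0.13 with Slc6a13. The means of Igf2, Col1a2 and Col3a1 each include a probe set too dim for the filter.

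The type I collagen chains, whose proteins join in 1 molecule, correlated at r = 0.39 (permutation p = 0.155, adjusted p = 0.705, rho = 0.24 with permutation p = 0.295 and adjusted p = 0.78, r = 0.41 without the 2 farthest arrays), and at 0.04 without the 4 arrays of low weight. Without those arrays, and with the group means of all 24, the highest r belonged to another pair, Ogn with Aldh1a2, at 0.65. Over all 24 arrays that pair stood at r = 0.27 (permutation p = 0.209, adjusted p = 0.705, rho = 0.44 with permutation p = 0.0431 and adjusted p = 0.356, r = 0.53 without the 2 farthest arrays), and with the mean of each gene's probe sets at -0.01. Ogn and Slc6a13 then stood at 0.52, Igf2 and Igfbp2 at 0.49, Col1a2 and Col3a1 at 0.49, and Col1a2 and Aldh1a2 at 0.33.

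**Figure D4:**
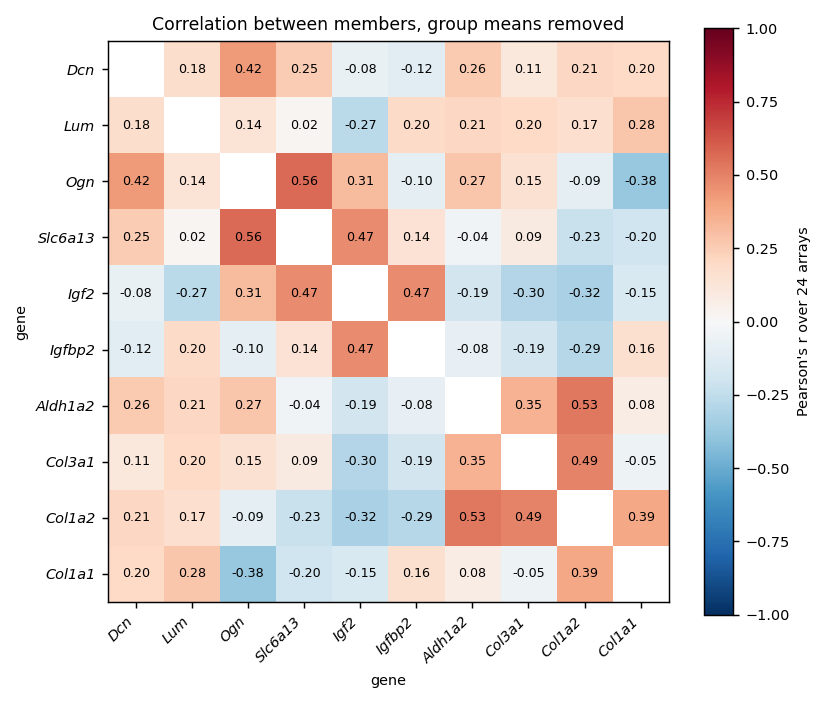
Pearson's r between each pair of the 10 genes over 24 arrays with group means removed (colour and printed value, from blue below 0 to red above 0). The pair of Ogn and Slc6a13 has the highest value, Col1a2 has values of 0.53 with Aldh1a2 and 0.49 with Col3a1, and the lowest value is -0.38, for Ogn with Col1a1.

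To describe which other genes varied most like the 10, each was standardised, the mean was taken on every array, and the brightest probe sets of 12918 other genes were ranked by r with it over 24 arrays, group means removed. The median r was 0.01. The 10 highest were Ssbp1 (0.75), Sytl4 (0.75), Pigp (0.74), Fmod (0.73), Bbs4 (0.72), Tgfbr3 (0.72), Dtd1 (0.71), Islr (0.71), Gm4988 (0.70) and Zcchc18 (0.69). The ranking is a description without a test, and the r that unrelated genes would reach was not computed. Fmod encodes fibromodulin, another small leucine-rich proteoglycan, and stood first (0.81) without the 4 arrays of low weight. Ssbp1 then had rank 5 (0.78) and Islr rank 20 (0.72). Islr, on the list of further fibroblast genes used here, differed by 0.57 between aSYN/Hsp70 and aSYN (SE 0.19, limma adjusted p = 0.123) and by 0.52 from wt (SE 0.19, adjusted p = 0.283).

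Of that list of further meninges and fibroblast genes, 25 of 29 passed the filter and limma called 0. In aSYN/Hsp70, 13 were higher and 12 lower than in wt (median 0.00), and 12 higher and 13 lower than in aSYN (median 0.00). The log2 of their summed intensity ran from 17.44 to 17.81 in wt, 17.45 to 17.72 in aSYN, 17.46 to 17.80 in Hsp70 and 17.43 to 17.73 in aSYN/Hsp70. The summed level of the list thus covered nearly the same range in every group, while Fbln1 differed by 0.57 from aSYN (SE 0.19, adjusted p = 0.129) and Nupr1 by -0.37 (SE 0.12, adjusted p = 0.115).

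Markers of neighbouring cell types were read in the same way. Choroid plexus genes were lower in aSYN/Hsp70 than in wt for 8 of 9 past the filter (median -0.19) and lower than in aSYN for 8 of 9 (median -0.16), with 0 called by limma. Their summed level ran from 17.27 to 17.58 in wt, 17.46 to 17.63 in aSYN, 17.28 to 17.62 in Hsp70 and 17.08 to 17.52 in aSYN/Hsp70, the lowest being replicate 4. Mural cell genes, 9 of 11 past the filter, had a median difference of -0.03 from wt and summed levels of 15.19 to 15.50 in aSYN/Hsp70 against 15.31 to 15.52 in wt. The part of either list in the differences of the 10 genes was not tested.

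Among the markers of other cell types, limma called 2 genes, both in aSYN/Hsp70 versus aSYN, where 0.718% of all probe sets tested were called. Dct, a melanocyte enzyme gene and the only one of 5 melanocyte genes past the filter, was higher by 1.32 (SE 0.27, limma adjusted p = 0.0238). Cldn5, the tight junction gene of brain endothelium, was higher by 0.71 (SE 0.17, adjusted p = 0.046), in a list of 10 of which 5 were higher and 5 lower. Between aSYN and wt, Cldn5 differed by -0.45 (SE 0.17, limma adjusted p = 0.732). On the same list, Slco1c1 in aSYN/Hsp70 differed by -0.31 from aSYN (SE 0.098, adjusted p = 0.113) and by -0.47 from wt (SE 0.098, adjusted p = 0.154). Pigment cells also lie in the meninges, and the summed level of the 5 melanocyte genes ran from 8.62 to 10.34 in aSYN, 9.51 to 10.33 in wt, 8.61 to 10.44 in Hsp70 and 10.05 to 11.17 in aSYN/Hsp70. Dct is part of that sum and the other genes in it were too dim for the filter. The sum is thus no reading of pigment cells apart from Dct. Neither Dct nor Cldn5 was called without the 4 arrays of low weight. The same held without any 1 of aSYN replicate 2, aSYN/Hsp70 replicate 3 and aSYN/Hsp70 replicate 4. It also held when dim probe sets were kept, when the fit held the arrays of these groups alone, and with a replicate block. Only 1 gene of all these lists was called without quantile normalisation, with array weights or with the sex covariate, and 4 were called without aSYN/Hsp70 replicate 6. The part of these genes in the differences of Dcn and Col1a2 in the same comparison was not tested.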

How the data were processed

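The authors deposited a linear intensity for each probe set on each of 24 arrays of mouse whole-brain RNA. The mean of the deposited intensities without the lowest and highest 2% was 2500 on every array, as scaling by 1 factor would give. That step and how probes were summarised are not given in the sources used here. From these values, log2(intensity + 16) was quantile normalised. The added 16 understates differences of dim probe sets. The 64 control probe sets and the dimmest 40% (18015) were left out, and 27022 were tested with limma 3.58.1 in R 4.3.3, with Benjamini-Hochberg adjusted p-values over all of them. The fit was tested on simulated arrays. Of the 45101 probe sets, 34958 carried 1 gene symbol, 932 several and 9211 were unnamed here. Genes were named from the former only.

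The members and all other lists were chosen with earlier results of these data known. All 10 members are named; of other lists, genes called, otherwise at most 3 with the smallest p in a comparison. Correlations used 100000 within-group permutations (Python 3.11.15, scipy 1.17.1). Figures were drawn with matplotlib 3.10.9. Whether replicate numbers pair the samples is not stated. Of 36 same-numbered pairs, 3 had deviations correlated above 0.1 (mean r = 0.02), and 8 of 24 arrays correlated best with their own number. Low correlations cannot exclude pairing, so a replicate block was fitted as an alternative. The number of arrays limits the precision. The labels give no batch.

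Alternatives were no quantile normalisation, offsets of 1 and 256, no filter, only the arrays of the groups compared, a replicate block, array weights, no arrays of weight under 0.5, a sex covariate, weights with sex, a trended and robust variance, the mean of a gene's probe sets, its brightest one on each array, and each array left out.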

Additional observations from a re-analysis of the deposited data

Results flagged for a closer look

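A single array stood far from the other 5 of its group for 4 of the 10 genes, all in aSYN/Hsp70: the gap to its neighbour, over the whole range, exceeded Dixon's 95% critical value for 6 samples. Chance alone marks about 1 in 20 groups, and 40 were examined. Lum read 7.98 in replicate 3, with the next array at 9.72. Replicate 4 read 12.57 for Col1a2 (next 11.51), 9.25 for Slc6a13 (next 10.20) and 11.32 for Aldh1a2 (next 10.68). Both arrays are among the 4 of low weight (0.394 and 0.124).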

How the results depend on the processing

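Over 13 alternative settings and 24 fits with 1 array left out, limma called 0 of the 10 genes in every comparison fitted. The smallest adjusted p was 0.0645, for Col1a2 in aSYN/Hsp70 versus aSYN without aSYN/Hsp70 replicate 6. Of the 21 differences beyond 1 SE, the difference between aSYN/Hsp70 and Hsp70 changed sign for Igfbp2 without the 4 arrays of low weight (0.0141) and for Igf2 with the mean of all probe sets (0.262). The cause was not tested. Of 1052 values of the other 39 differences, 130 had the opposite sign. The pair correlations past 0.05 were 0 in the main analysis and 1 with the mean of all probe sets, Ogn with Slc6a13 (r = 0.73, permutation adjusted p = 0.0337). With the replicate block, 0 of the 10 genes were called, Col1a2 in aSYN/Hsp70 versus aSYN stood at 0.58 (limma adjusted p = 0.161), and 70 probe sets were called in place of 194. Over the settings that count ran from 7 to 369, and from 49 to 814 with 1 array left out. The fit on only the arrays of the groups compared was not run for the interaction.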
